A study of Mus musculus with 8 samples.

Results

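The genes described here encode 10 proteins of the damage response to unsynapsed chromatin and of its silencing in male meiosis. They include the kinase gene *Atr* and its activator *Topbp1*, and the axis genes *Hormad1* and *Hormad2* with *Brca1*. The others are the γH2AX genes *H2afx*, *Mdc1* and *Rnf8*, and the H3K9 methylation genes *Setdb1* and *Trim28*. All were listed by function and are 10 of 21938 protein-coding genes in the mouse annotation. A peak was given to a gene when it shared at least 1 bp with the gene body or with the 1000 bp before it. By that rule 8 of the 10 genes held peaks in both deposited lists, and *Topbp1* and *H2afx* held none in either. In the narrower start window defined below, the same 2 genes had no peak in either list, against 47.3% of all protein-coding genes. The 10 genes carried 13 of the 19309 *Arid1a* WT peaks and 17 of the 30244 *Arid1a* cKO peaks.

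Chromatin accessibility was measured by ATAC-seq, in which the Tn5 transposase inserts sequencing adapters into open DNA, on pachytene spermatocytes enriched by gravity sedimentation from testes pooled over many adult males and then cryopreserved. *Arid1a* cKO males were Arid1a fl/fl with 1 copy of *Stra8-Cre*, a transgene active from the spermatogonial stage, whereas *Arid1a* WT males were Arid1a fl/fl or Arid1a fl/+ without Cre, so that floxed alleles were present in both genotypes. *Arid1a* encodes the DNA-binding subunit of the BAF form of the SWI/SNF chromatin remodeler. Deletion by *Stra8-Cre* is incomplete, and the *Arid1a* cKO cells mix spermatocytes lacking ARID1A with spermatocytes that escaped recombination. Each genotype had 4 libraries, made from aliquots of frozen cells, but 1 list of peaks, in which the peaks of a single library were kept where they overlapped those of the other libraries. No value is therefore given per library, no test between genotypes was possible, and what follows compares 2 lists. The lists give no library totals, so depth is known only as the mean background coverage of the library that supplied the values, which was 4.33 fragments per base in *Arid1a* WT and 5.11 in *Arid1a* cKO, a ratio of 1.18.

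In meiotic prophase I the X and Y stay largely unsynapsed and are transcriptionally silenced, a process termed meiotic sex chromosome inactivation (MSCI). HORMAD1 and HORMAD2 coat unsynapsed axes, BRCA1 and TOPBP1 bring in ATR, and ATR phosphorylates histone H2AX to γH2AX. MDC1 binds γH2AX and carries it from the axes into the chromatin loops, where the ubiquitin ligase RNF8 is recruited. SETDB1, a methyltransferase for H3K9, and its corepressor partner TRIM28 act on the silenced chromatin. All 10 genes are autosomal, so the accessibility at their own starts, and not that of the chromosomes they silence, is what was measured.

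All 8 pachytene markers had a peak at the start in both lists. Spermatogonial markers had a start peak at 0 of 6 genes in *Arid1a* WT and 3 of 6 in *Arid1a* cKO, at a fold enrichment of 3.11 to 5.73. Sertoli markers had one at 2 of 6 and 3 of 6 genes, the highest being *Amh* at 13.4 in *Arid1a* cKO against 3.19 in *Arid1a* WT. In *Arid1a* cKO this was above 3 of the 8 pachytene markers (*Pgk2* at 9.0, *Adam3* at 8.02 and *Ldhc* at 11.5). The *Amh* peak was 420 bp on 1 row in *Arid1a* WT and 4830 bp in *Arid1a* cKO, for a gene of 2.41 kb. Whether that wide peak belongs to *Amh* or to a neighbour was not tested. A start peak in *Arid1a* cKO alone was found at 3 of 6 spermatogonial and 2 of 6 Sertoli markers, against 7.0% of all genes. The spermatogonial genes were *Zbtb16* at 3.11 on 1 row, *Kit* at 3.27 and *Uchl1* at 5.73. At *Uchl1* the *Arid1a* cKO start peak overlapped an *Arid1a* WT peak that lay outside the start window. The 2 Sertoli genes were *Wt1* at 3.27 and *Cldn11* at 3.93. In *Arid1a* WT alone it was found at *Gata4* (3.19) and *Star* (3.0), 1 of 6 Sertoli and 1 of 6 Leydig and peritubular markers. The share over all genes was 0.242%. Start peaks at markers of other cells were thus absent from neither list. Over all protein-coding genes, 45.7% had a start peak in *Arid1a* WT and 52.5% in *Arid1a* cKO. These counts do not measure how many such cells were present. Leydig and peritubular markers had one at 1 of 6 and 0 of 6 genes, and blood and immune markers at 0 of 4 and 1 of 4. The part of these cells in the values below was not tested. The targeted gene, *Arid1a*, kept a start peak in both lists (fold enrichment 11.4 and 16.2), which does not check a deletion inside its coding exons.

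A start peak was defined as the strongest peak sharing a base with the stretch from 1000 bp upstream to 100 bp downstream of the main transcription start. In *Arid1a* WT 8 of the 10 genes had one, where 45.7% of all protein-coding genes did, and the same 8 had one in *Arid1a* cKO, where 52.5% did. No member gained or lost its start peak between genotypes, while 7.0% of all genes had a start peak in *Arid1a* cKO alone and 0.242% in *Arid1a* WT alone. Each member start peak lay on at least 3 rows of its list, a row being the part of the peak that overlaps a peak of another library. Among all genes, both start peaks did so at 9422 of the 9976 genes with one in each list.

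**Figure D1:**
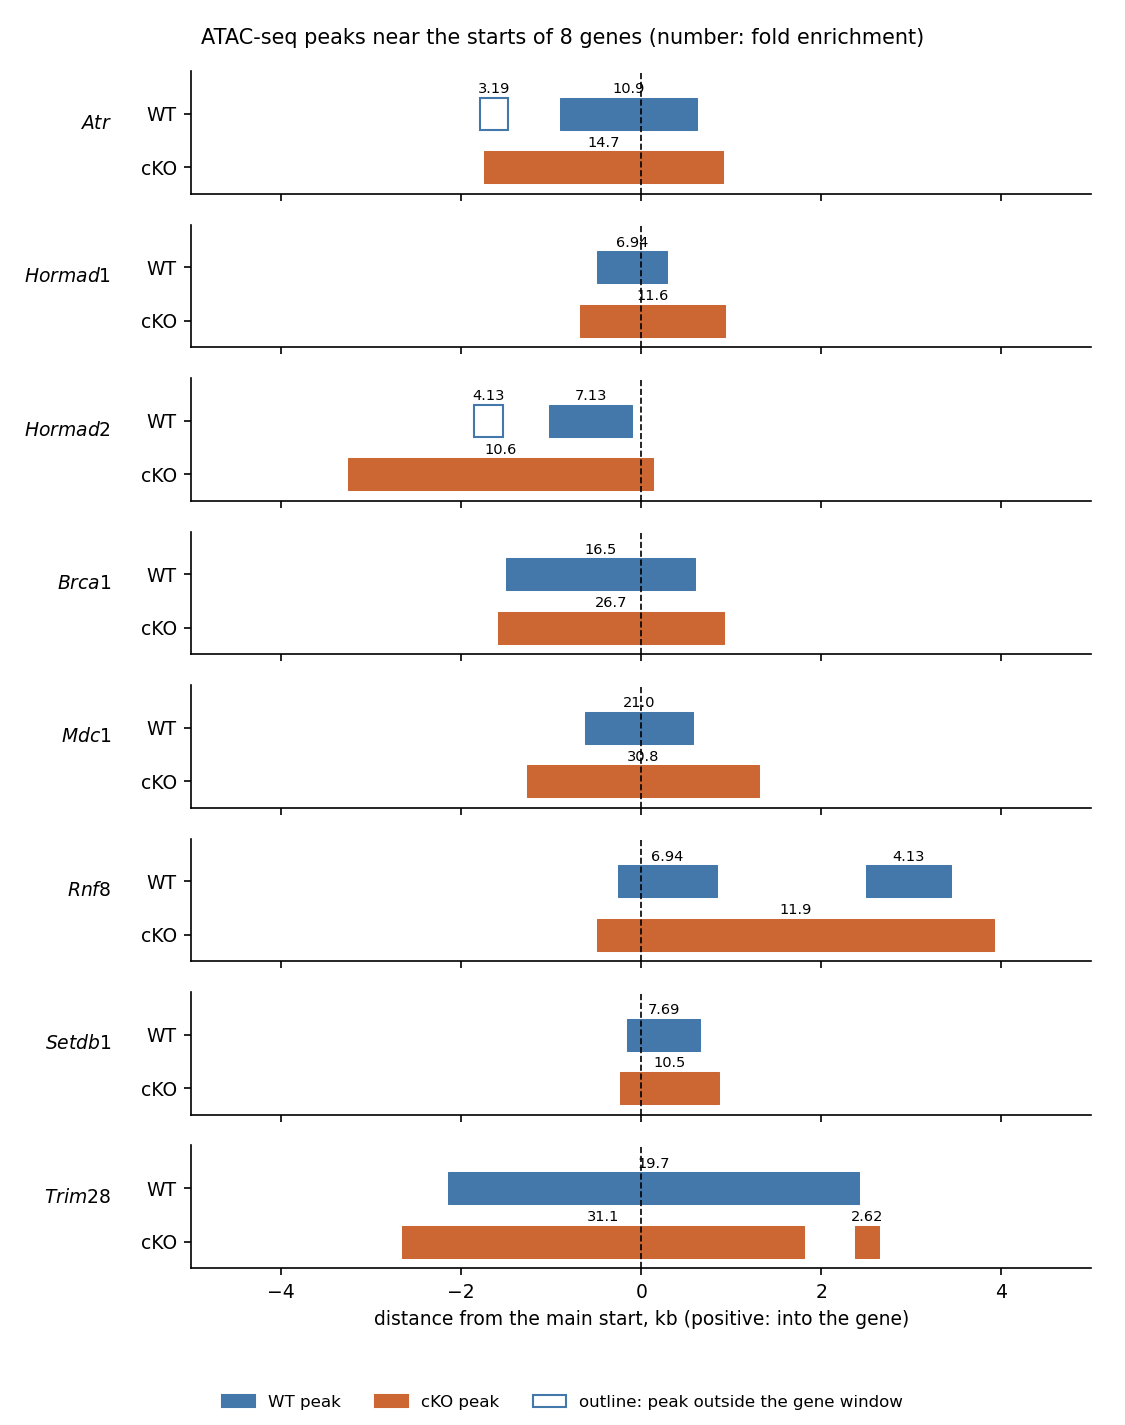
Peaks within 5 kb of the main start (dashed line) of 8 genes, with distance in kb on the x axis, *Arid1a* WT peaks in blue, *Arid1a* cKO peaks in orange and fold enrichment printed above each. The *Arid1a* cKO start peak reached farther than the *Arid1a* WT start peak on both sides at 7 genes, and at *Atr*, *Hormad2* and *Rnf8* it overlapped 2 *Arid1a* WT peaks.

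Start-peak fold enrichment was higher in *Arid1a* cKO at all 8 genes, by 1.35 to 1.72 times, with a median of 1.53 (0.62 on the log2 scale). The same direction was found at 98.0% of the 9976 genes with a start peak in both lists, where the median ratio was 1.57 (0.65 on the log2 scale) and the quartiles were 1.38 and 1.74. Ratios of 1.5 or more were found at 4 of the 8 genes, *Hormad1*, *Brca1*, *Rnf8* and *Trim28*, against 59.9% of all genes, and no member reached that size in the other direction, against 0.0301%. The fold enrichment of these genes thus differed between the lists by about as much as that of genes at large. The measure is the fold enrichment deposited with each peak, the fragments piled up at the summit over the mean background. Counting error was taken from the whole fragments at the summit, with the difference in background divided out. The 95% interval of the ratio, by an exact binomial method, held 1 at 3 of the 8 genes (*Atr*, *Hormad2* and *Setdb1*), and at all 8 it held 1.54, the median of this pileup ratio over all genes. These intervals cover the counting error of 1 library on each side and not the spread between replicates.

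**Figure D2:**
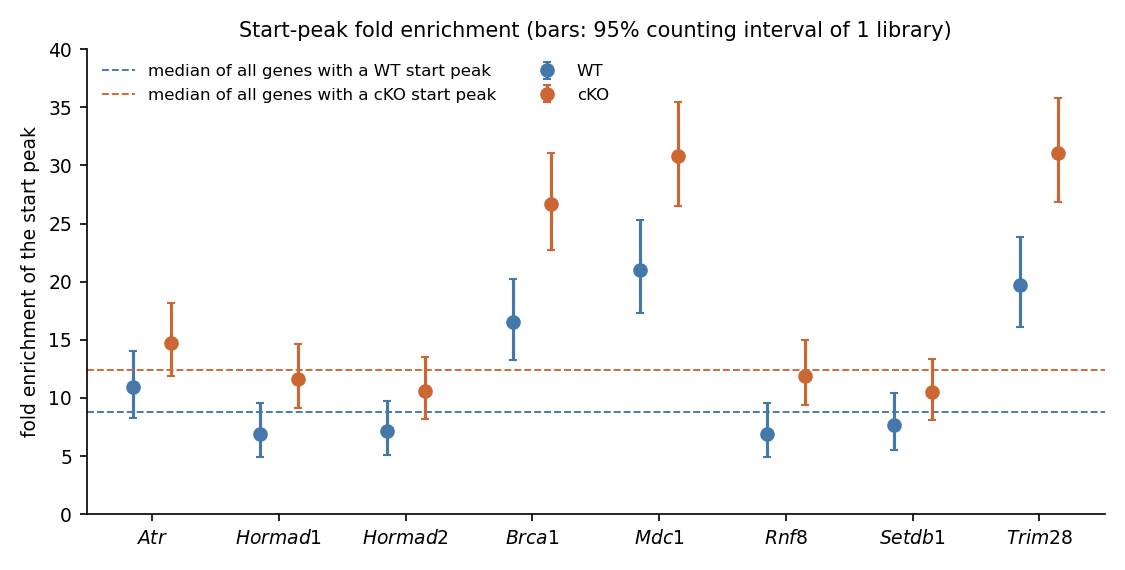
Fold enrichment of the start peak (y axis, fold over background) at 8 genes, *Arid1a* WT in blue and *Arid1a* cKO in orange, with bars for the 95% counting interval of a single library and dashed lines for the medians of all genes with a start peak, 8.82 and 12.4. *Mdc1*, *Trim28*, *Brca1* and *Atr* stood above the median of each list, and all 8 orange points lay above their blue partners.

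*Atr* encodes the kinase that phosphorylates H2AX along unsynapsed axes and then throughout the sex body. The gene spans chr9:95857597-95951781 on the plus strand of mm10. In *Arid1a* WT its single peak, chr9:95856800-95858326, was 1527 bp wide, lay on 3 rows and had a fold enrichment of 10.9 from 57 fragments at the summit. In *Arid1a* cKO the single peak, chr9:95855956-95858615, was 2660 bp wide on 3 rows with a fold enrichment of 14.7 from 89 fragments. The ratio of 1.35 was the lowest among the 8 genes, and its pileup ratio was 1.32 (95% counting interval 0.938 to 1.88). The interval reached from 0.906 kb to 1.75 kb upstream and from 0.62 kb to 0.909 kb downstream. The *Arid1a* cKO peak also shared 275 bp with a separate *Arid1a* WT peak of 322 bp and fold enrichment 3.19 that lay outside the gene window. Both peaks cover the start of the antisense transcript *1700065D16Rik*, from which ATAC-seq, having no strand, cannot tell *Atr* apart.

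*Topbp1* encodes the activator that switches on ATR. No row of either list fell in its body or upstream 1000 bp (gene at chr9:103305215-103350428, plus strand). The nearest peaks lay 103.0 kb before and 177.0 kb after its start in both lists, a gap of 280.0 kb that holds 6 protein-coding starts. Peak names are numbered along the genome, and 5 numbers are skipped across this gap in *Arid1a* WT and 4 in *Arid1a* cKO. Between neighbouring peaks 0.241 numbers were skipped on average in *Arid1a* WT and 0.172 in *Arid1a* cKO. The absence of a row here is thus no measure of closed chromatin, because numbered peaks of the source library in this gap are not among the rows analysed here.

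*Hormad1* and *Hormad2* encode the meiotic HORMA-domain proteins that mark unsynapsed axes. The *Hormad1* start peak measured 780 bp in *Arid1a* WT (chr3:95559187-95559966, 3 rows) with a fold enrichment of 6.94 from 36 fragments. In *Arid1a* cKO it measured 1610 bp (chr3:95558999-95560608, 3 rows) with a fold enrichment of 11.6 from 70 fragments, a ratio of 1.67 and a pileup ratio of 1.65 (1.09 to 2.54). No other peak was found in its 28.0 kb. Summits could be placed in both lists and lay 76 bp upstream of the start in *Arid1a* WT and 140 bp upstream in *Arid1a* cKO.

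At *Hormad2* the *Arid1a* WT start peak (chr11:4440843-4441769, 927 bp, 3 rows) had a fold enrichment of 7.13 from 37 fragments and ended 98 bp short of the main start. Its *Arid1a* cKO counterpart (chr11:4440619-4444005, 3387 bp, 6 rows) had a fold enrichment of 10.6 from 64 fragments, a ratio of 1.49 and a pileup ratio of 1.47 (0.963 to 2.26). The wider interval ran upstream, over a second *Arid1a* WT peak of 323 bp and fold enrichment 4.13, and its 6 rows are pieces of 932 to 1586 bp on either side of a break. No single row covered the whole extended interval. A peak found in *Arid1a* cKO alone lay in intron 10, 55.8 kb into the gene (chr11:4384925-4385042, 118 bp). It was among the weakest of the member peaks, with a fold enrichment of 2.62 from 15 fragments and a single row.

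*Brca1* encodes the tumour suppressor that loads on unsynapsed axes and helps to concentrate ATR there. Its *Arid1a* WT peak (chr11:101551282-101553381, 2100 bp, 3 rows) had a fold enrichment of 16.5 from 87 fragments. The *Arid1a* cKO peak (chr11:101550957-101553475, 2519 bp, 3 rows) reached 26.7 from 162 fragments, a ratio of 1.62 and a pileup ratio of 1.58 (1.21 to 2.07). Among all genes with a start peak it ranked in the top 9.21% in *Arid1a* WT and the top 8.33% in *Arid1a* cKO. The same peak covers the start of the divergent neighbour *Nbr1*, an autophagy receptor gene, and its value belongs to both promoters.

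*H2afx* encodes histone H2AX, the substrate of ATR in this pathway. Like *Topbp1*, this gene of 1.38 kb (chr9:44334694-44336077, plus strand) held no row in either list. The gap between the flanking peaks was 129.0 kb in *Arid1a* WT and 123.0 kb in *Arid1a* cKO, with 15 and 19 peak numbers skipped. It contains 10 protein-coding starts, including those of *Vps11* and *Rps25*, a vesicle trafficking and a ribosomal protein gene that most cells use and that were picked out after the values were seen. Of the 10374 genes with no start peak in either list, 5.99% lay in a gap with at least 4 numbers skipped in *Arid1a* WT and 5.79% in *Arid1a* cKO. Accessibility at *H2afx* and *Topbp1* is therefore not reported here as low, high or changed.

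*Mdc1* encodes the mediator that binds γH2AX and spreads it through chromatin loops. It had the strongest start peak of the group in *Arid1a* WT and the most peaks of any member in *Arid1a* cKO. The *Arid1a* WT start peak (chr17:35840889-35842092, 1204 bp, 3 rows) had a fold enrichment of 21.0 from 111 fragments, in the top 2.45% of start peaks. The *Arid1a* cKO start peak (chr17:35840247-35842824, 2578 bp, 3 rows) had a fold enrichment of 30.8 from 187 fragments, in the top 4.27%, with a ratio of 1.46 and a pileup ratio of 1.43 (1.12 to 1.82). It grew on both sides of the start, from 0.626 kb to 1.27 kb upstream and from 0.577 kb to 1.31 kb downstream.

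Inside the gene 2 weak peaks were common to the genotypes. The peak centred in coding exon 5 went from 444 bp at a fold enrichment of 3.38 (chr17:35847865-35848308) to 1160 bp at 3.44 (chr17:35847829-35848988). Its span was wider with hardly any change in height, from 17 and 20 fragments at the summits. No single *Arid1a* WT row covered the 444 bp, the rows measuring 205 to 338 bp. The other went from 165 bp on 1 row at 3.19 (chr17:35854550-35854714) to 971 bp on 3 rows at 3.93 (chr17:35853938-35854908). A further 2 peaks were found in *Arid1a* cKO alone. The first was centred in coding exon 10 (chr17:35852542-35853651, 1110 bp, 3 rows) with a fold enrichment of 4.25 from 25 fragments, and the second in the 3′ UTR of exon 16 (chr17:35857494-35858226, 733 bp, 4 rows) with 3.27 from 19 fragments. A sixth *Arid1a* cKO peak (chr17:35859490-35861908, 2419 bp, fold enrichment 15.5) reached the end of *Mdc1* from the start of its downstream neighbour *Nrm*, a nuclear envelope gene. Its *Arid1a* WT counterpart there, 1569 bp wide at 9.19, stopped short of *Mdc1*. Of the rise from 3 to 6 peaks, 1 is thus the widening of a neighbour's promoter peak. More *Arid1a* cKO than *Arid1a* WT peaks were counted at 3 of the 10 genes, *Hormad2*, *Mdc1* and *Trim28*, against 23.1% of all genes.

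**Figure D3:**
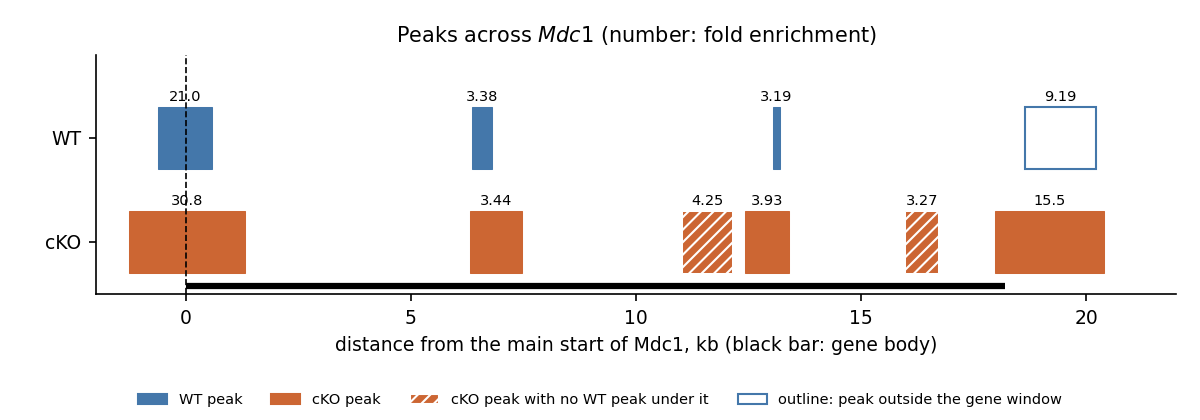
Peaks across *Mdc1* by distance from its main start in kb, *Arid1a* WT above and *Arid1a* cKO below, with fold enrichment printed above each, hatching for peaks found in *Arid1a* cKO alone, an outline for a peak outside the gene window and a black bar for the gene body. Peaks inside the gene have fold enrichments of 3.19 to 4.25, far under the 21.0 and 30.8 of the start peaks.

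*Rnf8* encodes the ubiquitin ligase that acts on histones after MDC1 has bound γH2AX. In *Arid1a* WT it had 2 peaks, both on 3 rows. The start peak (chr17:29614531-29615635, 1105 bp) had a fold enrichment of 6.94 from 36 fragments, and an intron 1 peak (chr17:29617291-29618229, 939 bp) had 4.13 from 21. In *Arid1a* cKO a single peak of 4404 bp (chr17:29614303-29618706, 3 rows) spanned both, with a fold enrichment of 11.9 from 72 fragments, a ratio to the *Arid1a* WT start peak of 1.72 and a pileup ratio of 1.69 (1.12 to 2.6). Its rows measured 4324 to 4404 bp, so in every row the stretch between the *Arid1a* WT peaks was part of 1 interval. *Rnf8* thus counted fewer peaks in *Arid1a* cKO than in *Arid1a* WT, as did 2.34% of all genes, without the loss of an accessible site. Both start peaks also cover starts of *AC163629.1* and *Gm28043*.

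*Setdb1* encodes an H3K9 methyltransferase. Its *Arid1a* WT peak (chr3:95356548-95357356, 809 bp, 3 rows) had a fold enrichment of 7.69 from 40 fragments, and its *Arid1a* cKO peak (chr3:95356334-95357443, 1110 bp, 3 rows) had 10.5 from 63. The ratio was 1.36 and the pileup ratio 1.33 (0.884 to 2.04). It was the narrowest start peak of the group in *Arid1a* cKO, and no other peak was found along its 33.7 kb.

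*Trim28* encodes the corepressor, also called KAP1, that brings SETDB1 to chromatin. Its start peak was the widest of the group in both lists, 4576 bp in *Arid1a* WT (chr7:13022000-13026575, 6 rows) and 4467 bp in *Arid1a* cKO (chr7:13021495-13025961, 3 rows). The fold enrichment was 19.7 from 104 fragments and 31.1 from 189, a ratio of 1.58 and a pileup ratio of 1.54 (1.21 to 1.98). In *Arid1a* WT the 6 rows ran from 175 to 3894 bp, so that no single row covered the full span, whereas the shortest *Arid1a* cKO row measured 3958 bp. Just beyond the *Arid1a* cKO peak, a peak of 271 bp on 1 row (chr7:13026527-13026797) had a fold enrichment of 2.62 and shared 49 bp with the *Arid1a* WT peak.

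Toward the 3′ end of *Trim28*, a peak of 725 bp at a fold enrichment of 3.19 in *Arid1a* WT (chr7:13029817-13030541) faced a peak of 2536 bp at 4.25 in *Arid1a* cKO (chr7:13029286-13031821). That *Arid1a* cKO interval was identical in its 3 rows and also covered a second *Arid1a* WT peak of 286 bp just past the gene. An annotated upstream transcript extends the gene over the start of *Zbtb45*, a zinc finger gene 14.5 kb before the main start. The peak there had a fold enrichment of 6.57 in *Arid1a* WT (876 bp) and 9.49 in *Arid1a* cKO (1460 bp).

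Width showed more spread among the members than height. Start peaks were wider in *Arid1a* cKO at 7 of 8 genes, against 95.4% of all genes, with width ratios from 0.976 at *Trim28* to 3.99 at *Rnf8*. The median width ratio was 1.9 (0.92 on the log2 scale), against 1.44 (0.52 on the log2 scale) over all genes. With 8 genes this is a description of these promoters. Every *Arid1a* cKO row was longer than every *Arid1a* WT row at all 8 genes. The share was 88.5% of all genes with both start peaks on 3 or more rows. The margin was small at *Hormad2* (932 against 927 bp) and at *Trim28* (3958 against 3894 bp). An *Arid1a* cKO start peak whose span overlapped 2 *Arid1a* WT peaks was found at 3 of the 8 genes, *Atr*, *Hormad2* and *Rnf8*. The share was 4.85% of all genes with an *Arid1a* cKO start peak. At *Hormad2* no single row overlapped both *Arid1a* WT peaks. At *Atr* the second *Arid1a* WT peak was weak, with a fold enrichment of 3.19, and lay outside the gene window. The median *Arid1a* cKO start peak was 2619 bp wide in these genes and 1479 bp over all genes. Background coverage was 1.18 times higher in the *Arid1a* cKO library, and its part in peak width was not tested.

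**Figure D4:**
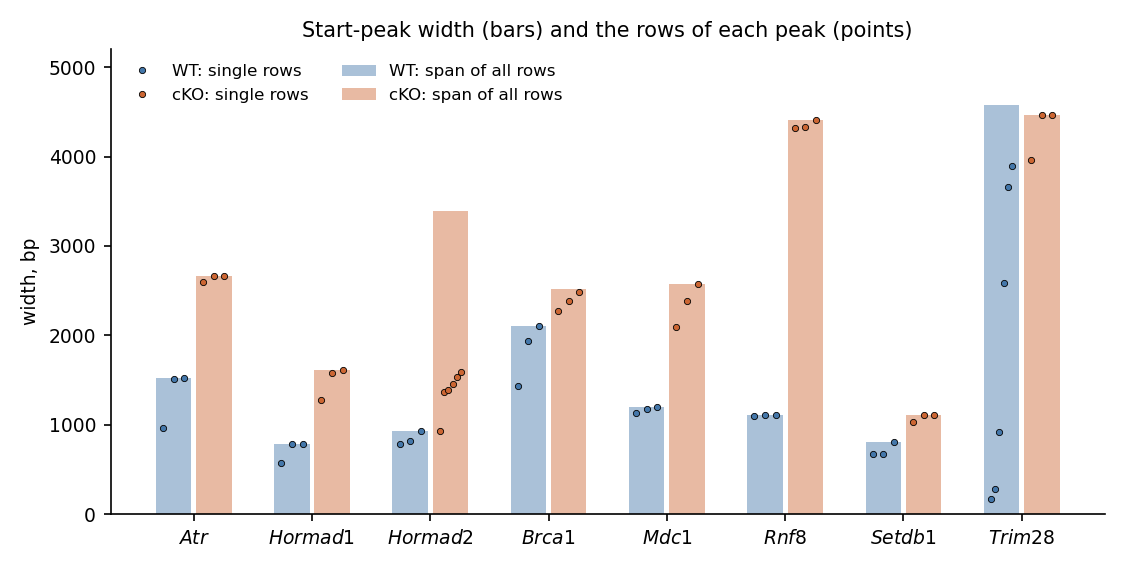
Width in bp of the start peak at 8 genes, with bars for the span of all rows and points for single rows, *Arid1a* WT in blue and *Arid1a* cKO in orange. *Rnf8* went from 1105 to 4404 bp, and the *Hormad2* points sit far under its bar because the *Arid1a* cKO peak is split into pieces.

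Beside the start peaks there were 5 *Arid1a* WT and 9 *Arid1a* cKO peaks, in *Hormad2*, *Mdc1*, *Rnf8* and *Trim28*. The strongest of them lay on neighbours' starts, at *Zbtb45* in both lists and at *Nrm* in *Arid1a* cKO. Without these, 4 *Arid1a* WT peaks had fold enrichments of 3.19 to 4.13 and 7 *Arid1a* cKO peaks 2.62 to 4.25. In all, 3 of the 17 *Arid1a* cKO peaks shared no base with an *Arid1a* WT peak, at 2 of the 10 genes, where 23.6% of all genes held at least 1 such peak. All 13 *Arid1a* WT peaks overlapped an *Arid1a* cKO peak, and a peak found in *Arid1a* WT alone was present at 2.2% of all genes. Where the stricter limit of 10 on the −log10 q scale was set in both lists, no member peak remained in *Arid1a* cKO alone.

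**Figure D5:**
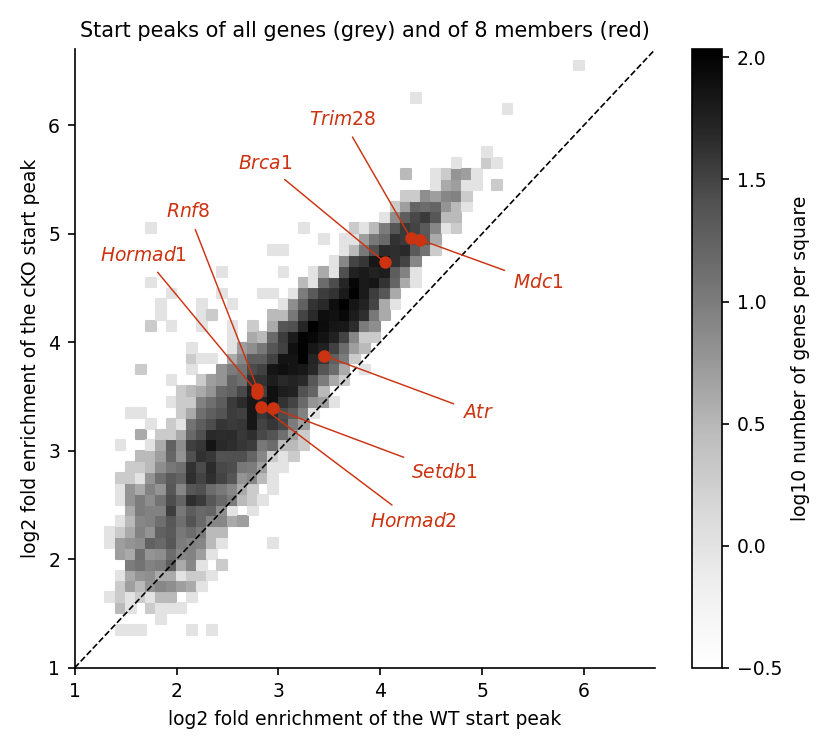
Log2 fold enrichment of the start peak in *Arid1a* WT (x axis) and *Arid1a* cKO (y axis) for the 9976 genes with both, shaded by the number of genes per square, with 8 members in red and equality dashed. The members lie inside the grey cloud above the line, with differences of 0.44 to 0.78 on the log2 scale.

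The sequence under the start peaks was read from the RefSeq copy of GRCm38.p6, the assembly behind mm10. The 6 stretches below end at the base before the first annotated start of each gene, and each holds some of the letters described next. A start peak covers 5 of them in both lists, and *H2afx* had no row. The stretches of *Atr*, *Hormad2* and *Trim28*, which start peaks also cover, and of *Topbp1* are not printed. Among these, only that of *Hormad2* holds no match. The *Setdb1* stretch lies inside an exon of the transcript *Gm37500*, on the other strand, and the *Rnf8* stretch overlaps an exon of the divergent noncoding *AC163629.1*. Each is 150 bases, 5′ to 3′ on the gene's strand, and capitals mark matches on either strand to letters searched: AACNGTT (MYB), TGACGTCA (CRE), CACGTG (E-box), GGCGGGAA (E2F), CCGGAAG (ETS), CGCATGCG (NRF1), CCAAT (NFY), GGGCGG (SP) and AAGATGGC (YY1).
*Hormad1* (chr3:95559527-95559676, plus strand): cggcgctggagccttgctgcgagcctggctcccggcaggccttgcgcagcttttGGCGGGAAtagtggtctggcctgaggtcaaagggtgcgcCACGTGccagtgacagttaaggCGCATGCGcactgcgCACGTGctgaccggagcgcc
*Mdc1* (chr17:35841365-35841514, plus strand): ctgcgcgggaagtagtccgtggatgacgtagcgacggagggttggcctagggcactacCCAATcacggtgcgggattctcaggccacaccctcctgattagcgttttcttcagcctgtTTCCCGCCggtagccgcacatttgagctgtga
*Rnf8* (chr17:29614640-29614789, plus strand): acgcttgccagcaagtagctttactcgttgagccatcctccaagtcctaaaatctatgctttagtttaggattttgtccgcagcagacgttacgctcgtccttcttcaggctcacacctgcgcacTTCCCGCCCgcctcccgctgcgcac
*Brca1* (chr11:101551956-101552105, minus strand): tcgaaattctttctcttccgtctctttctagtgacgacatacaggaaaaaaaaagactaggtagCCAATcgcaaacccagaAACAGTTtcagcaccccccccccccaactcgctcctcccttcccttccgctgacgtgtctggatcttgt
*Setdb1* (chr3:95357203-95357352, minus strand): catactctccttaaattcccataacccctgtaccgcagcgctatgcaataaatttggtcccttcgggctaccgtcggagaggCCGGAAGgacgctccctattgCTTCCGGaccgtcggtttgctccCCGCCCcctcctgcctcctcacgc
*H2afx* (chr9:44334544-44334693, plus strand): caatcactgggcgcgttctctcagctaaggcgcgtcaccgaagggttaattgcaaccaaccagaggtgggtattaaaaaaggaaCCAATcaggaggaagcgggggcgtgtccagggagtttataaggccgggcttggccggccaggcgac

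Over the wider window of 250 bases before to 50 after the main start, the E2F letters were present at 4 of the 10 genes, *Hormad1*, *Mdc1*, *Rnf8* and *Trim28*, and at 2.99% of all protein-coding promoters. At *Rnf8* they overlap an SP match. The ETS letters were held by 4 genes (*Atr*, *Topbp1*, *Hormad2* and *Setdb1*), against 11.2% of promoters, and the MYB letters by *Topbp1* and *Brca1*, against 4.02%. *Hormad1* alone held E-box letters (7.78% of promoters) and NRF1 letters (2.66%), all within 57 bases of its start. SP letters stood in 6 genes (45.5% of promoters) and CCAAT in 5 (38.6%), of which *H2afx* had 4 copies. CRE letters (2.49%) and YY1 letters (3.08%) were in none of these 10 windows. A match is a run of letters and not a shown binding site. GC content ran from 44.7% at *Hormad2* to 67.3%, with a median of 59.2% against 56.0% for all promoters. The ratio of observed to expected CpG was 0.703 to 1.01 with a median of 0.888, against 0.558, and of the 2 genes without rows *H2afx* had 0.881 and *Topbp1* the highest value, 1.01.

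A list of 44 other genes of ATR signalling, axes, γH2AX reading, Fanconi repair and silencing chromatin was set beside the members. Start peaks were found at 38 of them in *Arid1a* WT and 41 in *Arid1a* cKO, against 45.7% and 52.5% of all genes. Fold enrichment was higher in *Arid1a* cKO at all 38 with both, against 98.0% of all genes, by 1.27 to 2.08 times with a median of 1.67, against 1.57. Ratios of 1.5 or more were reached at 29 of the 38, against 59.9% of all genes, and none in the other direction, against 0.0301%. The start peak was wider at 36 of the 38, against 95.4%, at a median width ratio of 1.35, against 1.44.

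The 5 largest ratios, picked from the 38 genes with both start peaks, were as follows. At each of the 5 the 95% counting interval of the pileup ratio held 1.54, the median over all genes. *Rad50* and *Mre11a*, which encode partners in the complex that binds double-strand breaks, went from 8.25 to 17.2 and from 11.1 to 21.4. *Rpa2*, a subunit of the single-strand DNA binding complex that recruits ATR, went from 11.3 to 22.1. *Rad17*, the loader of the checkpoint clamp, went from 10.3 to 19.3, and its *Arid1a* cKO peak of 5957 bp overlapped 2 *Arid1a* WT peaks. *Trip13*, the ATPase that removes HORMADs from synapsed axes, went from 8.82 to 16.9.

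A start peak in *Arid1a* cKO alone was found at 3 of the 44 genes, a share (6.82%) close to the 7.0% of all genes. *Hus1b*, a checkpoint clamp paralog, had a fold enrichment of 6.22. The other two are X-linked, *Fancb* of the Fanconi core complex at 5.73 and *Scml2*, a germline Polycomb protein gene, at 3.11. No gene of this list had a start peak in *Arid1a* WT alone. *Atrip*, whose product is the obligate partner of ATR, *Ccdc36* and *Rbbp8* had none in either list, with 3, 0 and 1 peak numbers skipped across their gaps in each list. Peaks found in *Arid1a* cKO alone lay in 12 of the 44 genes, against 23.6% of all genes.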

How the data were processed

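Peaks were compared between *Arid1a* WT and *Arid1a* cKO pachytene spermatocytes, 4 ATAC-seq libraries each. Per the study's methods, paired 50 bp reads were trimmed with Trim Galore, aligned to mm10 with Bowtie2, freed of duplicates (Picard) and mitochondrial reads, and given to MACS2 at a q limit of 0.05 with a constant background. The authors then kept blacklist-filtered peaks that overlapped between replicates. The deposited rows hold a fold enrichment (a ratio), a q-value as −log10 and a summit offset, used here, and a p-value, not used here.

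Rows (52419 and 84006) were collapsed by peak name, and width is the span of the rows of a name, a lower bound for the called peak. Gene models were GENCODE release 21 for mouse, and main starts those of the APPRIS principal transcript. The whole number of fragments at each summit was recovered from the grid of the fold values, within 0.02 for 100.0% of peaks. Exact Poisson (figure bars) and conditional binomial intervals cover counting error only. All member peaks are named, as are genes of the wider list with no start peak, with one in a single list, or among the 5 largest fold ratios, and neighbours whose start lies under a member peak. Members and lists were chosen with earlier results of these data known. Scripts were tested on simulated data and used Python 3.11.15, pandas 2.3.3, scipy 1.17.1 and pysam 0.24.0.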

Additional observations from a re-analysis of the deposited data

How the results depend on the processing

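Of 69 recomputed values under other settings, 62 stayed within 1.5 times of the reported count or within the spread set for the reported median (on the log2 scale, a counting error of 0.27 for fold and a row SD of 0.14 for width), and none reversed. Start peaks stayed at 8 genes in each list under all 8 settings tried. The median fold ratio (0.62 on the log2 scale) ranged from 0.59 without the added fragment to 0.83 without division by the background, and the median width ratio (0.92) fell to 0.79 with the longest single row. The counts of other peaks were less stable. At a −log10 q of at least 10 in both lists, *Arid1a* cKO peaks at the members fell from 17 to 10 and those found in *Arid1a* cKO alone from 3 to 0. The latter count was 1 with lists of equal length, 1 with a −log10 q of at least 5 against the full other list, 5 with 3000 bp upstream and 11 when the other list had to cover at least 50% of a peak. Peaks found in *Arid1a* WT alone rose from 0 to 1 with lists of equal length. Leaving out peaks on 1 row and keeping start peaks on exactly 3 rows were chosen after seeing the data. No paired analysis was possible because the lists carry no values per replicate, and leaving out a replicate was not possible for the same reason.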
